A study of Mus musculus with 63 samples.

Results

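The 45 genes described here carry mouse cells into S phase and copy their DNA. They were taken by symbol from the 15616 genes of a liver RNA-seq time course: 5 E2F transcription factors, 7 G1 cyclins, cyclin-dependent kinases and their activator Cdc25a, 15 origin licensing and helicase genes, 12 fork and polymerase genes, and 6 genes for nucleotide supply and the upkeep of DNA methylation. All 45 were present, and 42 were expressed highly enough to be tested in males. Poly(A) RNA was sequenced from 63 single livers of mice 10 to 14 weeks old. The 26 KO males (Hcfc1 hepKO/Y) carried the tamoxifen-inducible Cre transgene Alb-Cre-ERT2tg, driven by the albumin promoter, and a lox-flanked Hcfc1 on their only X chromosome. The 12 Het females (Hcfc1hepKO/+) carried the same transgene with 1 lox-flanked and 1 intact allele. The 25 WT males are labelled C57BL/6, while the protocol gives the control males as Hcfc1 lox/Y without Cre. The protocol gives 3 tamoxifen injections of 1 mg, on days 0, 1 and 2, and livers were taken from day 0 to day 14. Livers of days 0 and 1 thus precede the last injection, and whether those of day 0 were taken before the first is not stated. Because WT males had no Cre by that protocol, KO and WT livers differ in Cre as well as in Hcfc1, and the effects of each cannot be told apart. No WT females were sequenced, so Het livers were compared with their own earliest days.

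In a resting liver nearly all hepatocytes sit outside the cell cycle. Growth signals raise cyclin D1, which with CDK4 and cyclin E with CDK2 phosphorylates the retinoblastoma protein and frees the activating E2F factors E2F1 to E2F3, while E2F7 and E2F8 repress the same genes later in S phase. E2F targets include the MCM helicase loaded at origins by ORC, CDC6 and CDT1, the polymerases and clamp of the fork, and the enzymes that make deoxynucleotides. HCF-1, the product of Hcfc1, bridges transcription factors and histone-modifying complexes and has been found with E2F proteins in human cells.

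Levels are deposited RPKM, that is, reads normalised to exon length and to the total of the library. Male days were grouped into 0, 1 to 2, 3 to 6, 7 to 9 and 10 to 14. There were 2 livers per male genotype on each day to day 9, and 1 WT and 1 KO liver on each later day except day 14, which had 2 KO livers. Differences are on the log2 scale, relative to the median gene of the same comparison, with standard errors from limma. "Higher", "lower", "rose" and "fell" are used of a test only where the adjusted p was under 0.05, with the same sign, on 2 scales: the values as deposited, and the values with every library set to a common median gene (here called centring). The median gene itself differed between KO and WT livers by 0.09, 0.23, 0.28, 0.26 and 0.85 in the 5 windows in turn. The rule therefore undercounts falls. An adjusted p given without a scale, like the standard errors, comes from the deposited values. It tests the difference before the median gene is subtracted, and the median gene shifted upward in every comparison. Such a p is therefore smaller for a rise, and larger for a fall, than the printed difference alone would give. Estimated depth was 21.8M to 53.1M reads in KO, 18.1M to 53.7M in WT and 28.9M to 49.6M in Het livers. Hcfc1 (mm9, chromosome X, 71188131 to 71211696, minus strand) had 4.61 and 5.58 RPKM in KO livers of day 0, against 4.07 and 4.50 RPKM in WT livers. It had 11.2 to 18.1 RPKM in KO livers of days 3 to 6, against 5.22 to 8.48 RPKM in WT livers, and 21.6 to 47.8 RPKM in KO livers of days 10 to 14, against 5.96 to 9.87 RPKM. The table has 1 value per gene, which does not set the lox-flanked exons apart and so does not show how much of Hcfc1 was deleted. All 8 hepatocyte markers were expressed in every group.

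Promoters of 4 genes are shown because their expression took contrasting courses below. Mcm5 and Mcm6 were lower in KO than in WT livers on days 3 to 6 and higher on days 10 to 14, while Prim1 and Rfc5 were lower in all 3 late windows. The stretches are the 250 bases before the transcription start, 5' to 3' on the gene's strand, from RefSeq on GRCm38.p6. They lie at chr8:75109259-75109508 (plus strand) for Mcm5, chr1:128359706-128359955 (minus strand) for Mcm6, chr10:128014965-128015214 (plus strand) for Prim1 and chr5:117389024-117389273 (minus strand) for Rfc5. Capitals mark E2F-type matches in Mcm5 and Mcm6 and an extended ZNF143 and THAP11 element in Prim1.
Mcm5: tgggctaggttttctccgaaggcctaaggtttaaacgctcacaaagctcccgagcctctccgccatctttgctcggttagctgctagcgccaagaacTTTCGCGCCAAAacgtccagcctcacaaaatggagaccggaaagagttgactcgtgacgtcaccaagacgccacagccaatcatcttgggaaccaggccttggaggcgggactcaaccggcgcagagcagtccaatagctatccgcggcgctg
Mcm6: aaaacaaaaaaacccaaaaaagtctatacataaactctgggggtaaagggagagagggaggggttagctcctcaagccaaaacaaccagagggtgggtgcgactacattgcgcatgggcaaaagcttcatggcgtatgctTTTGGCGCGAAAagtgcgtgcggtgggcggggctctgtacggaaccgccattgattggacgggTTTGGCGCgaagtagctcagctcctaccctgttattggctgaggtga
Prim1: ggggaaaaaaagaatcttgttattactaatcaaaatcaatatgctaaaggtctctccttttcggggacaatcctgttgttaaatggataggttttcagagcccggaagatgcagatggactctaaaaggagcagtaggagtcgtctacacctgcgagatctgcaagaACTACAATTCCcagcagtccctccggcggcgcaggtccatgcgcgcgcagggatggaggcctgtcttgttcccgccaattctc
Rfc5: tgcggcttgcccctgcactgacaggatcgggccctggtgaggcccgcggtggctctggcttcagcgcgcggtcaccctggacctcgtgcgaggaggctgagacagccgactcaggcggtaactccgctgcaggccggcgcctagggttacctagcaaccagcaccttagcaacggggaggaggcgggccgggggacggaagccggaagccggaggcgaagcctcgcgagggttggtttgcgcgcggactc

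The E2F-type search used the letters TTTCCCGC, TTTCGCGC, TTTGCCGC and TTTGGCGC on both strands of RefSeq windows of 300 bases, from 250 before to 50 after the start. Of the 36 members with a window, 18 held a match (50.0%), against 704 of 27025 genes with a window (2.6%). The set was chosen to hold E2F factors and the kinds of gene named above as E2F targets, so its larger share is no independent finding. The 27025 genes were not limited to those expressed in liver. In Mcm5, TTTCGCGC on the printed strand, starting 153 bases before the start, overlaps TTTGGCGC on the other strand. Mcm6 holds the same kind of overlapping pair from 110 bases before the start and a further TTTGGCGC from 47 bases before it. The NF-Y letters CCAAT, on either strand, cannot lie inside an E2F-type match and share at most its end bases. They were in 24 of 36 members (66.7%) and 41.1% of all genes. The letters ACTACA begin the element bound by ZNF143 and THAP11, the second of which is an HCF-1 partner. Searched on both strands, they were in 7 of 36 members (19.4%), among them Mcm6, where they are not capitalised, and in 11.8% of all genes. The extended form, the run in capitals in Prim1, contains them and was added after the Prim1 sequence had been read. It was in 1 of 36 members, Prim1, starting 83 bases before the gene's start, and in 0.32% of all genes. A match is a description of letters and not a bound site. Ccnd1, Ccnd2, Ccne2, Gins1, Gins2, Gmnn, Mcm4, Pole and Prim2 had no window in the table.

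Across the time course the set followed different courses in KO and WT livers. In each library, the median of the 45 members was compared with the library's median gene. It lay 1.79 to 1.97 log2 units under the median gene in the KO livers of day 0, and 1.91 to 1.99 under it in the WT livers of day 0. The 8 KO livers of days 3 to 6 had -1.84 to -1.25, with a median of -1.65, and the 8 WT livers had -1.30 to -0.88, with a median of -1.11. The ranges overlap at their ends. Whole livers were sequenced, so fewer cells in the cycle and less RNA per cell cannot be told apart. On days 7 to 9 the 6 KO livers had -1.98 to -0.92 and the 6 WT livers had -1.59 to -0.74. On days 10 to 14 the 6 KO livers had -1.93 to -0.81, with a median of -1.53, and the 5 WT livers had -1.92 to -1.06, with a median of -1.73, so the ranges overlap nearly in full. KO stood below WT on days 10 and 11 and above it on days 12 to 14. Single libraries stand apart. KO day 8 replicate 1 had -0.92, against a KO median of -1.74 for days 7 to 9, and KO day 14 had -0.81 in the library whose column carries no replicate number. WT day 10 replicate 1 had -1.06, against -1.73 for the WT median of days 10 to 14.

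**Figure D1:**
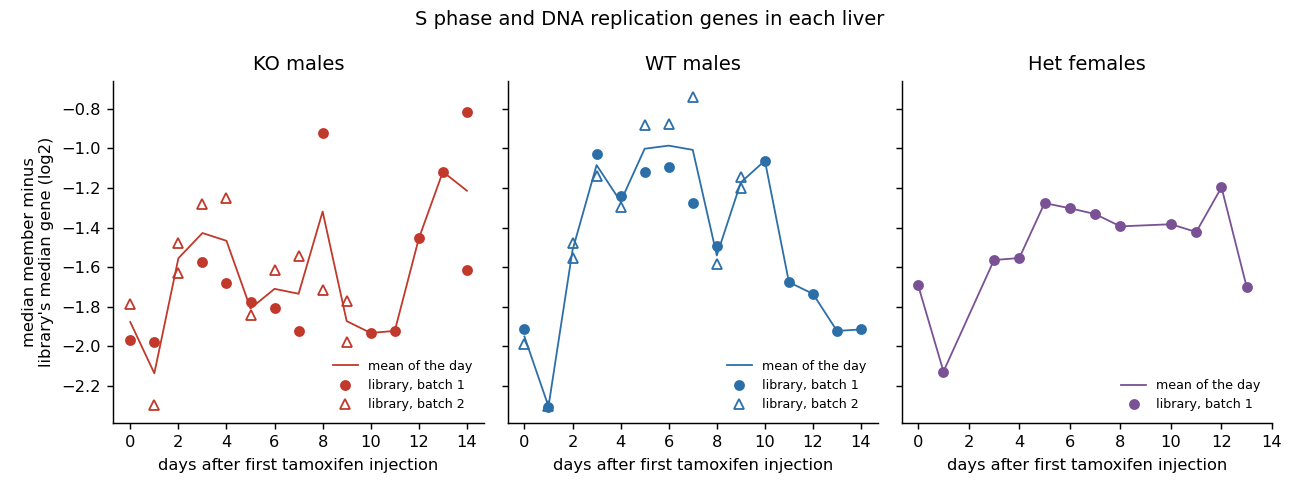
Median of the 45 S phase and replication genes minus the library's median gene (log2) by day, in KO males, WT males and Het females. Each point is 1 liver, filled for batch 1 and open for batch 2 of the deposited library names, and lines join day means. KO livers of days 3 to 6 lie between -1.84 and -1.25, and WT livers of the same days between -1.30 and -0.88.

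After the injections, on days 3 to 6, 18 of 42 members were lower and 3 were higher in KO than in WT livers. Of all 12221 genes, 13.0% were lower and 29.8% higher. The members' median difference was -0.68, against 0 for the median gene by construction, and 4 of 42 lay above the median gene. After centring alone, 32 members were lower and 3 higher, and of all 12221 genes 3329 were lower and 3639 higher. In batch 1 alone 6 were lower and 2 higher, and in batch 2 alone 9 were lower and 3 higher. The shares of all genes above come from all male libraries, so these single-batch counts are not compared with all genes.

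Of the activating E2F factors, E2f1 and E2f2 were lower. E2f1 (mm9, chromosome 2, 154385143 to 154395628, minus strand) had 0.511 RPKM at the lowest, 0.791 at the median and 1.01 at the highest in the 8 KO livers, against 1.53, 1.76 and 2.26 RPKM in the 8 WT livers. Every KO liver lay below every WT liver, and the difference was -1.52 ± 0.14 (adjusted p = 5.58e-08). E2f2 (chromosome 4, 135728309 to 135751972, plus strand) had 0.237, 0.375 and 0.458 RPKM in KO livers, against 1.06, 1.19 and 1.73 RPKM in WT livers, also without overlap (-2.14 ± 0.22, adjusted p = 7.16e-08). E2f3 differed by -0.56 ± 0.14 and passed only after centring (adjusted p = 0.0813 in the deposited values). The repressor E2f8 differed by -1.0 ± 0.33 and likewise passed only after centring (adjusted p = 0.0621 in the deposited values).

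Cyclin D1, which couples growth signals to the cycle, ran the other way. Ccnd1 (chromosome 7, 152115836 to 152125774, minus strand) had 38.7, 68.0 and 79.0 RPKM at the lowest, median and highest in the KO livers of days 3 to 6, against 14.7, 25.6 and 31.1 RPKM in WT livers. No KO liver reached down to a WT value, and the difference was 1.05 ± 0.13 (adjusted p = 4.83e-09). Its gene overlaps Oraov1 on the other strand. Of the other G1 genes, Cdk2, the kinase partner of cyclin E, was lower (-0.70 ± 0.13), as was Cdc25a, the phosphatase that activates CDK2 (-1.02 ± 0.14). Ccne1, Ccne2 and Cdk4 differed by -0.87 to -0.42 and were lower only after centring.

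Of 13 tested licensing and helicase genes, 6 were lower and 2 higher on days 3 to 6. Among the 6 subunits of the replicative helicase, Mcm5 (chromosome 8, 77633427 to 77652338, plus strand) and Mcm6 (chromosome 1, 130228168 to 130256233, minus strand) were lower. Mcm6 had 2.91, 3.87 and 4.80 RPKM at the lowest, median and highest in KO livers and 4.59, 5.92 and 7.01 RPKM in WT livers (-0.86 ± 0.16, adjusted p = 0.00305). Mcm5 had 1.14, 1.66 and 2.64 RPKM in KO livers and 1.86, 2.50 and 3.44 RPKM in WT livers, overlapping in part (-0.88 ± 0.23, adjusted p = 0.029). Over all libraries left out in turn the Mcm5 difference lay between -0.96 and -0.80, and the call was lost without any of 5: replicate 1 of KO day 3, 4 or 6, KO day 5 replicate 2 or WT day 6 replicate 2. Mcm2, Mcm3 and Mcm4 differed by -0.71 to -0.48 and were lower only after centring, and Mcm7 differed by -0.01 ± 0.12. The 6 subunits work as 1 ring but did not move by equal amounts. The licensing factor Cdt1 (-0.79 ± 0.20), its inhibitor Gmnn (-0.89 ± 0.16) and the GINS subunit Gins2 (-1.80 ± 0.29) were lower. The Cdt1 difference lay between -0.87 and -0.70 over the libraries left out, and its call was lost without any of 5: replicate 1 of KO day 3 or 4, KO day 5 replicate 2, or replicate 2 of WT day 4 or 5.

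Cdc45, which with MCM and GINS forms the active helicase, and Gins1 were the licensing genes that were higher. Cdc45 (chromosome 16, 18780540 to 18812080, minus strand) had 0.923, 1.78 and 2.09 RPKM at the lowest, median and highest in KO livers of days 3 to 6, against 0.650, 0.971 and 1.09 RPKM in WT livers (0.55 ± 0.16, adjusted p = 6.19e-05). KO day 3 replicate 1, at 0.923 RPKM, was the KO liver inside the WT range. Gins1 differed by 0.67 ± 0.14 (adjusted p = 2.2e-06), while its complex partner Gins2 was lower. Exons of Cdc45 overlap those of Ufd1l by 209 bases, and exons of Gins2 those of Gse1 by 2758 bases, on the opposite strand, so part of their reads could belong to the neighbour.

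At the fork, 6 of 12 genes were lower on days 3 to 6 and 0 higher. Both subunits of primase, which lays the RNA primers, were among them. Prim1 (chromosome 10, 127452228 to 127467093, plus strand), the catalytic subunit, had 0.687, 0.923 and 2.26 RPKM at the lowest, median and highest in KO livers, against 2.24, 3.28 and 4.77 RPKM in WT livers (-1.96 ± 0.21, adjusted p = 1.98e-07). KO day 3 replicate 2, at 2.26 RPKM, was the 1 KO liver inside the WT range. Prim2, the large primase subunit, differed by -1.13 ± 0.18 (adjusted p = 0.000228). Pole, the catalytic subunit of the leading-strand polymerase, had 0.227, 0.339 and 0.489 RPKM in KO livers, against 0.591, 0.912 and 1.16 RPKM in WT livers, without overlap (-1.67 ± 0.25, adjusted p = 3.11e-05). Rfc5 (chromosome 5, 117828112 to 117839056, minus strand), a subunit of the clamp loader, had 1.63, 2.89 and 4.08 RPKM in KO livers and 4.37, 5.68 and 6.52 RPKM in WT livers, also without overlap (-1.38 ± 0.16, adjusted p = 1.66e-06). Its exons overlap those of Wsb2 by 499 bases on the opposite strand. Fen1, a flap nuclease, and Pold1, the catalytic subunit of polymerase delta, were lower (-0.82 ± 0.14 for Fen1 and -0.80 ± 0.18 for Pold1), the Pold1 call being lost without KO day 6 replicate 1 (-0.90 to -0.70 over all libraries left out). The other clamp loader genes here, Rfc3 and Rfc4, differed by -0.18 ± 0.13 and -0.16 ± 0.18. Pcna, the sliding clamp itself, had 17.8, 21.2 and 25.8 RPKM in KO livers and 17.9, 21.6 and 29.0 RPKM in WT livers. These ranges coincide, and the difference relative to the median gene was -0.34 ± 0.11 (adjusted p = 0.649 in the deposited values and 0.00449 after centring).

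Among the nucleotide genes, Rrm1, the large subunit of ribonucleotide reductase, was lower (-1.01 ± 0.17), as was Tyms, thymidylate synthase (-0.66 ± 0.13). Rrm2, the S phase subunit of the same reductase, had 3.21, 5.63 and 7.71 RPKM at the lowest, median and highest in KO livers and 4.66, 6.76 and 9.57 RPKM in WT livers (-0.57 ± 0.20, adjusted p = 0.216 in the deposited values). It did not pass on both scales, and this p is larger than the printed difference alone would give. The maintenance methyltransferase Dnmt1 and its guide Uhrf1 differed by -0.26 ± 0.15 and -0.74 ± 0.29 and did not pass on both scales.

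**Figure D2:**
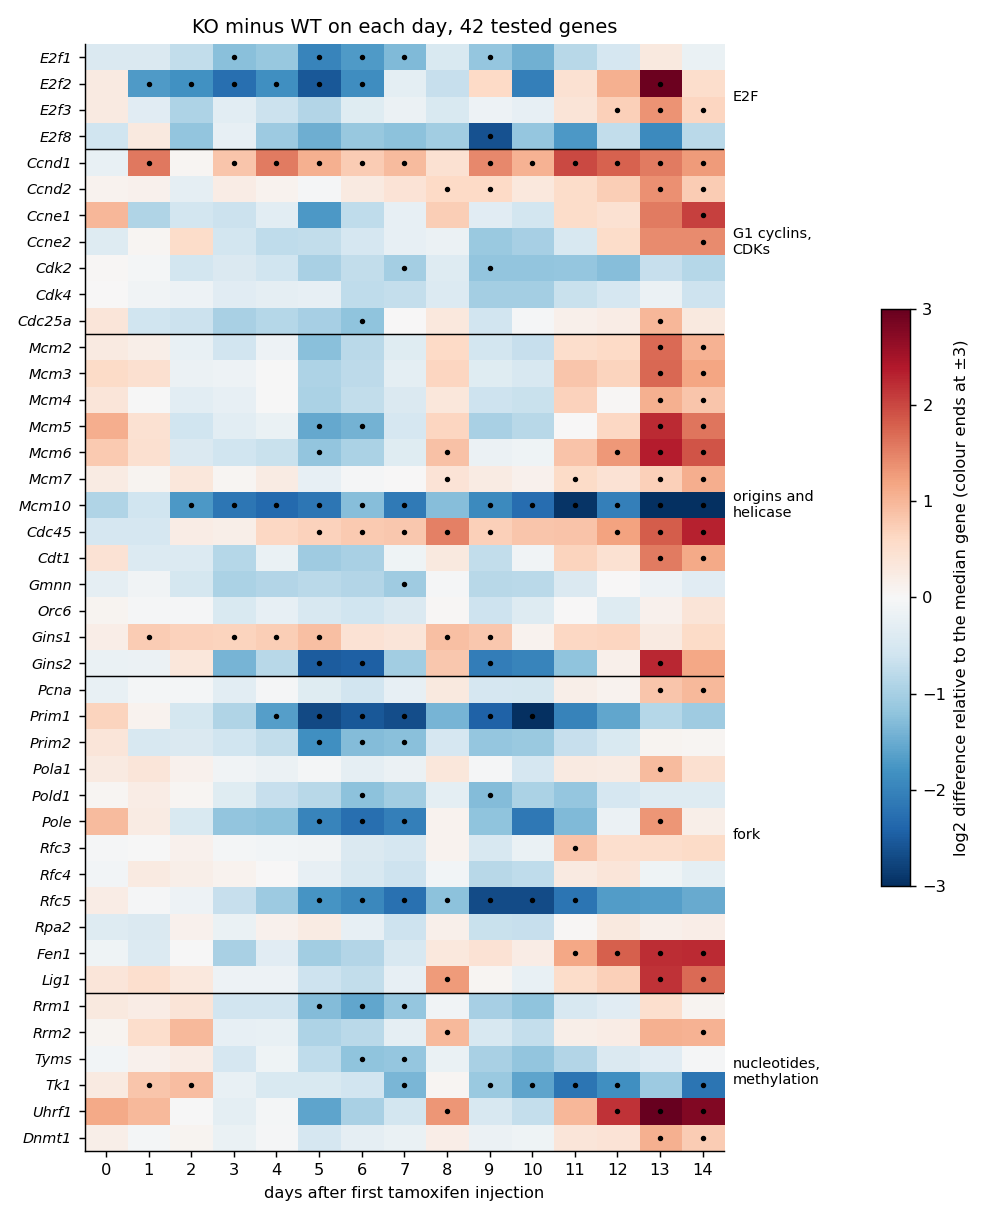
KO minus WT for the 42 tested genes on each day, as log2 difference relative to the day's median gene, red for higher and blue for lower in KO, with dots on called values. Genes run down the page by role. Lower members number 11 and 13 on days 5 and 6, the Mcm2 to Mcm7 values are all above 0 on days 13 and 14, and from day 3 on Mcm10, Prim1 and Rfc5 stay below 0 and Ccnd1 and Cdc45 above it.

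Taken day by day, KO minus WT gave 0, 1 and 2 lower members on days 0, 1 and 2 (0.0327%, 0.319% and 1.33% of all genes). From day 3 to day 6 there were 3, 3, 11 and 13 (2.59%, 3.74%, 6.03% and 9.35%), and from day 7 to day 9 there were 11, 1 and 9 (12.7%, 7.22% and 9.81%). From day 10 to day 14 there were 4, 3, 2, 1 and 2 (4.59%, 6.27%, 6.73%, 5.74% and 7.10%). Higher members numbered 0, 3 and 1 on days 0 to 2 (0.0327%, 3.65% and 2.18%), 2, 2, 3 and 2 on days 3 to 6 (8.01%, 13.7%, 17.1% and 11.0%) and 2, 8 and 4 on days 7 to 9 (17.5%, 16.9% and 21.7%). Days 5 to 7 held the highest counts of lower members.

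In KO livers of days 7 to 9, 13 of 42 members were lower and 6 higher than in WT livers, where 17.0% of all genes were lower and 33.2% higher. The members' median was -0.28. In batch 1 alone 1 was lower and 2 higher, and in batch 2 alone 8 were lower and 4 higher, again without a share of all genes to set beside them. Rfc5 had 1.02, 1.45 and 3.73 RPKM at the lowest, median and highest in the 6 KO livers, against 4.49, 5.25 and 7.12 RPKM in the 6 WT livers (-2.06 ± 0.18, adjusted p = 5.5e-09). Prim1 had 0.611, 0.794 and 2.60 RPKM in KO livers, against 2.74, 3.11 and 5.23 RPKM in WT livers (-2.16 ± 0.24, adjusted p = 2.5e-07). In both genes every KO liver lay below every WT liver, and the highest KO value came from day 8 replicate 1. E2f1 (-0.99 ± 0.17), E2f8 (-1.64 ± 0.38), Cdk2 (-0.87 ± 0.15), Tyms (-0.78 ± 0.15) and Tk1, thymidine kinase (-0.82 ± 0.17), were lower as well. Higher were Ccnd1 (0.94 ± 0.15), Ccnd2, another D cyclin (0.53 ± 0.17), Cdc45 (1.01 ± 0.18), Gins1 (0.69 ± 0.16), Mcm7 (0.22 ± 0.14) and Lig1, the ligase that joins Okazaki fragments (0.35 ± 0.19). Several calls rested on single libraries. Mcm7 lost its call without WT day 7 replicate 1 (0.13 to 0.31 over the libraries left out), and Lig1 without WT day 7 replicate 1, WT day 8 replicate 2, KO day 8 replicate 1 or KO day 9 replicate 2 (0.23 to 0.47). Among the lower members, Cdk4 and Pold1 lost theirs without KO day 8 replicate 2 (-0.74 to -0.69 and -1.05 to -0.72). Pole (-1.06 ± 0.29) and Rrm1 (-0.76 ± 0.20) lost theirs without replicate 2 of WT day 7, KO day 7 or KO day 8, WT day 8 replicate 1 or KO day 9 replicate 1, and Rrm1 also without WT day 9 replicate 2 (-1.24 to -0.87 for Pole and -0.85 to -0.67 for Rrm1). Mcm2, Mcm3, Mcm4, Mcm5 and Mcm6 differed by -0.29 to 0.11 and did not pass.

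The 2 KO livers of day 8 differed from each other. Mcm2 had 5.71 RPKM in KO day 8 replicate 1 and 1.71 RPKM in replicate 2, beside 1.71 and 1.66 RPKM in the WT livers of that day. Mcm5 had 5.57 and 1.54 RPKM in the KO livers and 1.81 and 1.31 RPKM in the WT livers. Uhrf1 had 4.37 and 1.1 RPKM in the KO livers and 0.930 and 0.556 RPKM in the WT livers. On day 8 alone, 8 members were higher and 1 was lower, against 16.9% and 7.22% of all genes. Without KO day 8 replicate 1, the days 7 to 9 count was 20 in place of 19.

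On days 10 to 14 the balance turned: 22 of 42 members were higher and 4 lower in KO than in WT livers, where 38.6% of all genes were higher and 11.1% lower. The members' median was 0.33, and after centring alone 22 members were higher and 10 lower, where 4714 of all 12221 genes were higher and 4090 lower. All libraries of these days came from batch 1. Most higher calls came late. Higher members numbered 1 on day 10, 4 on day 11 and 6 on day 12, then 21 on day 13 and 19 on day 14, against 10.8%, 17.6%, 18.9%, 26.7% and 27.3% of all genes. Days 10 to 13 rest on 1 liver per genotype. Without the livers of day 13 the count of called members was 19 in place of 26.

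All 6 MCM subunits were higher on days 10 to 14. Mcm6 had 8.74, 9.91, 13.1 and 22.0 RPKM in the KO livers of days 10 to 13 and 11.9 and 27.6 RPKM in those of day 14. In WT livers it had 7.64, 3.50, 3.48, 1.57 and 2.23 RPKM on days 10 to 14. The lowest KO value lay above the highest WT value, and the difference was 1.24 ± 0.20 (adjusted p = 3.91e-10). Mcm5 had 2.17, 2.15, 3.19 and 6.40 RPKM in KO livers of days 10 to 13 and 2.98 and 7.82 RPKM on day 14, against 3.07, 1.36, 1.37, 0.496 and 0.718 RPKM in WT livers (0.72 ± 0.29, adjusted p = 1.96e-05). Mcm2 (0.62 ± 0.24), Mcm3 (0.77 ± 0.22), Mcm4 (0.38 ± 0.23) and Mcm7 (0.57 ± 0.15) were the other subunits. On day 0 KO minus WT for the 6 subunits was already 0.25 to 1.09, though none was called. For none of the 6 was the change from day 0 to days 10 to 14 called different between the genotypes. The calls of Mcm2, Mcm4 and Mcm5 were lost without either liver of day 13, that of Mcm4 also without either of day 11, the WT liver of day 14 or the unnumbered KO library of day 14, and that of Mcm5 also without the WT liver of day 14. Over the libraries left out the differences were 0.36 to 0.96 for Mcm2, 0.21 to 0.65 for Mcm4 and 0.34 to 1.11 for Mcm5. Ccne1 (0.80 ± 0.39), Cdc25a (0.32 ± 0.18) and Pola1, of the primase-bearing polymerase alpha (0.28 ± 0.21), also lost their calls without either liver of day 13, the WT liver of day 14 or the unnumbered KO library of day 14, and Ccne1 and Pola1 also without either liver of day 11 or day 12. Their differences lay between 0.49 and 1.14, 0.15 and 0.41, and 0.12 and 0.48 over the libraries left out.

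The largest differences on days 10 to 14 among the higher members belonged to Uhrf1 (1.93 ± 0.35, adjusted p = 6.85e-08), Fen1 (1.51 ± 0.18, adjusted p = 4.07e-12), Ccnd1 (1.51 ± 0.16, adjusted p = 8.28e-13) and Cdc45 (1.39 ± 0.19, adjusted p = 5.26e-11). Uhrf1 already differed by 1.13 ± 0.57 on day 0 (not called). Unlike those of the other genes named, its change from day 0 was not called different between the genotypes. Fen1, the flap nuclease of Okazaki fragment maturation, had 4.85, 6.41, 9.43 and 18.4 RPKM in KO livers of days 10 to 13 and 12.4 and 18.2 RPKM on day 14, against 3.32, 1.84, 1.80, 1.45 and 1.44 RPKM in WT livers. It climbed with the day to day 13 in KO livers and did not overlap with WT. However, 1909 bases of its exons overlap a non-coding gene on the opposite strand, Gm10143. Its exons also overlap those of 1810006K21Rik on that strand, and the counting strand is not stated. Pcna had 22.2, 29.7, 31.2 and 70.4 RPKM in KO livers of days 10 to 13 and 68.9 and 74.1 RPKM on day 14, against 25.7, 16.6, 19.1, 14.4 and 16.6 RPKM in WT livers (0.30 ± 0.13, adjusted p = 1.08e-08). By day, Pcna was higher on day 13 (0.83 ± 0.30) and day 14 (0.97 ± 0.26) and did not pass on days 10 to 12. Its call was lost without either liver of day 13 or the WT liver of day 14 (0.13 to 0.51 over the libraries left out), and pseudogenes named for Pcna could share its reads. Rrm2 had 5.97, 7.51 and 13.1 RPKM at the lowest, median and highest in KO livers and 2.17, 3.37 and 9.34 RPKM in WT livers (0.35 ± 0.25, adjusted p = 9.14e-05 in the deposited values and 0.108 after centring).

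E2f1 had 0.941, 1.25, 1.36 and 2.98 RPKM in KO livers of days 10 to 13 and 1.65 and 3.70 RPKM on day 14, against 2.05, 1.42, 1.28, 0.883 and 1.29 RPKM in WT livers (-0.55 ± 0.18, adjusted p = 0.123). E2f2 had 0.727, 1.25, 1.57 and 2.16 RPKM in KO livers of days 10 to 13 and 1.47 and 1.86 RPKM on day 14, against 2.40, 0.583, 0.490, 0.102 and 0.522 RPKM in WT livers (0.58 ± 0.27, adjusted p = 2.9e-05). The E2f2 call rests on single days: it was lost without either liver of day 12 or day 13, and the difference lay between -0.01 and 1.24 over the libraries left out. The lower members were Mcm10, Prim1, Rfc5 and Tk1. Prim1 had 0.863, 1.13, 1.28 and 2.82 RPKM in KO livers of days 10 to 13 and 1.73 and 3.85 RPKM on day 14, against 5.46, 2.88, 2.47, 1.84 and 2.46 RPKM in WT livers (-1.70 ± 0.26, adjusted p = 0.00397). The KO liver of day 13 and the day 14 liver with 3.85 RPKM lay inside the WT range. Without either liver of day 10 the Prim1 call was lost (-1.91 to -1.37 over the libraries left out). Rfc5 had 1.5, 1.57, 2.22 and 4.02 RPKM in KO livers of days 10 to 13 and 2.69 and 5.61 RPKM on day 14, against 7.71, 4.58, 4.67, 4.59 and 5.03 RPKM in WT livers (-1.96 ± 0.20, adjusted p = 1.06e-05).

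The E2F-type letters were counted over these calls, with no test. Of the members with a promoter window, 13 of the 18 higher on days 10 to 14 held a match, 0 of the 4 lower and 2 of the 11 that did not pass. For days 3 to 6 the counts were 7 of the 14 lower, 0 of the 1 higher and 8 of the 18 that did not pass. For days 7 to 9 they were 2 of the 3 higher, 2 of the 11 lower and 11 of the 19 that did not pass.

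**Figure D3:**
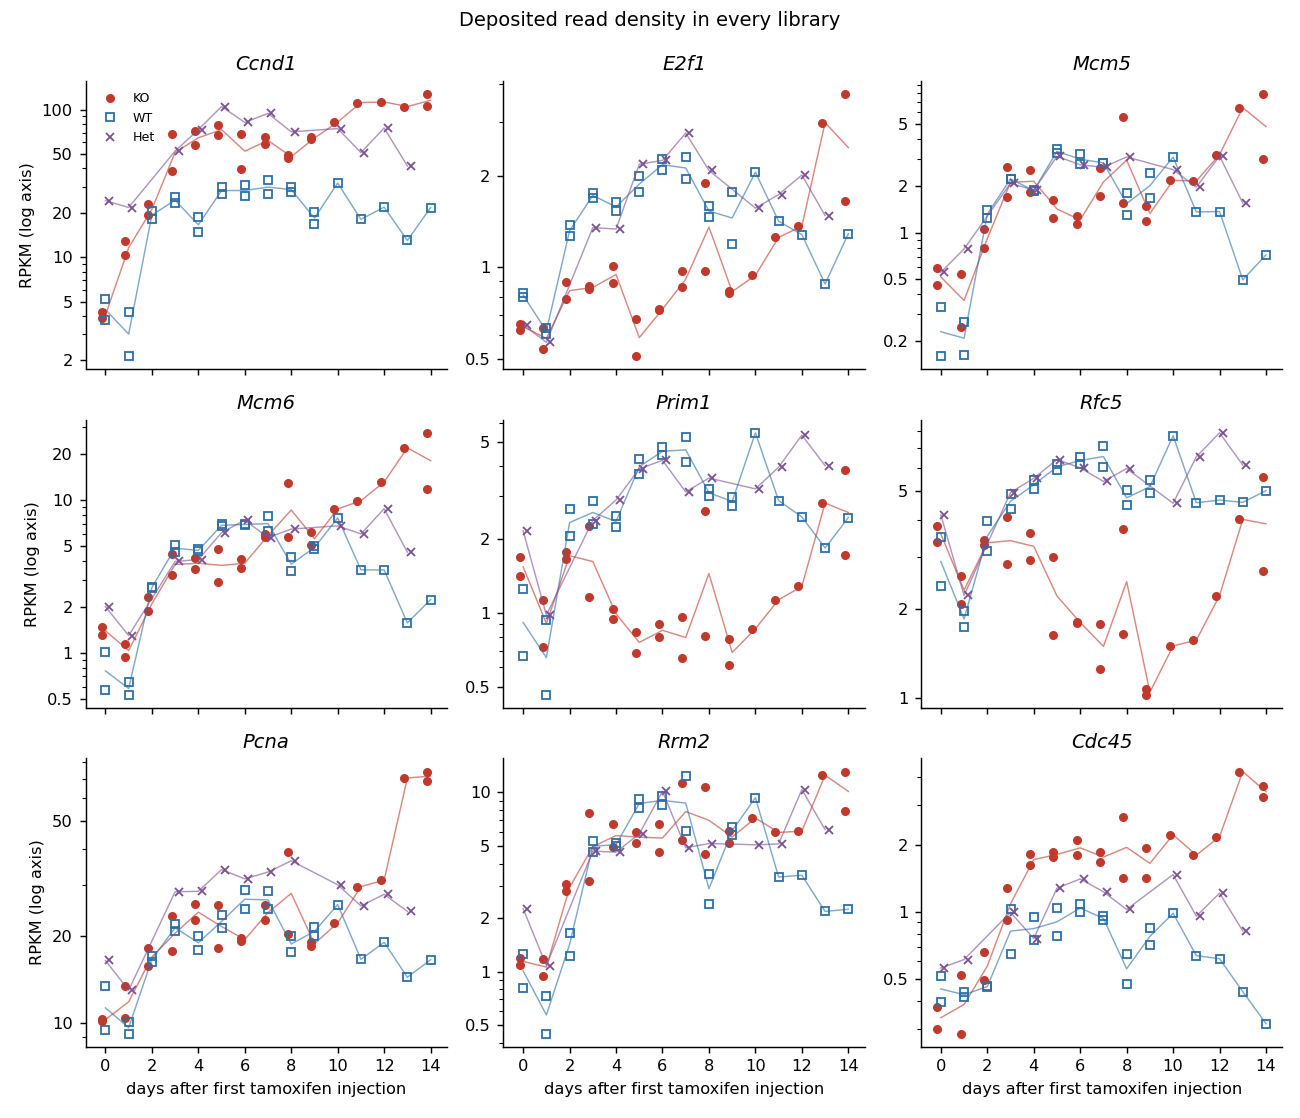
Deposited RPKM (log axis) of 9 members in every library by day, with KO as filled circles, WT as open squares and Het as crosses, and lines through the geometric mean of each day. Ccnd1 and Cdc45 run higher in KO than in WT livers from day 3 on, Prim1 and Rfc5 run lower on days 3 to 12, and Mcm5 and Mcm6 stand above WT on days 11 to 14.

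Each genotype was also measured against its own day 0. In KO livers of days 3 to 6, 16 of 42 were higher than on their own day 0 and 1 was lower, where 24.1% of all genes were higher and 3.01% lower. In WT livers of the same days, 29 were higher than on their day 0 and 0 lower, where 14.9% were higher and 1.09% lower. The members' median change was 0.30 in KO and 0.90 in WT livers. Both baselines hold 2 livers. Without KO day 0 replicate 1 or 2 the KO count was 9 or 11 in place of 17, and without WT day 0 replicate 2 the WT count was 17 in place of 29.

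In KO livers 8 of 13 tested licensing genes, 4 of 12 fork genes and 2 of 6 nucleotide and methylation genes were higher on days 3 to 6. The WT counts were 10, 8 and 6. Mcm5 rose by 0.97 ± 0.37 in KO and 2.96 ± 0.37 in WT livers, Mcm6 by 0.73 ± 0.26 and 2.41 ± 0.26, and Uhrf1 by 2.28 ± 0.45 and 4.18 ± 0.45. Prim1 changed by -1.33 ± 0.33 in KO livers (adjusted p = 0.099) and rose by 1.32 ± 0.33 in WT livers (adjusted p = 8.78e-05). Pole changed by -0.13 ± 0.39 in KO livers and rose by 2.50 ± 0.39 in WT livers. Ccnd1 rose more in KO livers (3.16 ± 0.21) than in WT livers (1.93 ± 0.21), as did Cdc45, which rose by 1.53 ± 0.25 in KO and changed by 0.49 ± 0.25 in WT livers. Tests of the difference of these changes called 10 members for days 3 to 6: Ccnd1 and Cdc45 above, and E2f2, Cdc25a, Mcm5, Mcm6, Prim1, Prim2, Pole and Rfc5 below, where 8.24% and 4.18% of all genes were called. Without KO day 0 replicate 1 or 2 there were 6 or 5. The differences of changes also hold the gap between the genotypes on day 0, which was not called for any member. KO minus WT was then 1.09 ± 0.47 for Mcm5, 0.78 ± 0.32 for Mcm6 and 1.13 ± 0.57 for Uhrf1. For Prim1 and Pole it was 0.67 ± 0.42 and 0.94 ± 0.49, and for Ccnd1 and Cdc45 -0.21 ± 0.27 and -0.51 ± 0.31.

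On days 7 to 9, 19 members were higher than on day 0 and 2 lower in KO livers (31.5% and 5.70% of all genes), and 24 were higher and 0 lower in WT livers (17.6% and 1.21%). Without WT day 0 replicate 2 the WT count was 15. Against their own days 3 to 6, KO livers had 6 members higher and 3 lower (24.7% and 13.9% of all genes), 5 in all without KO day 7 replicate 2, and WT livers had 0 higher and 1 lower (3.72% and 0.213%). The single WT call, lost without any of 5 of the 14 libraries, was that of E2f2 (-1.26 to -0.80 over the libraries left out). The change from day 0 differed between the genotypes for 7 members, 2 above and 5 below in KO (12.6% and 8.04% of all genes), and for 4 without KO day 0 replicate 1.

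On days 10 to 14, 21 members were higher than on day 0 and 2 lower in KO livers (35.6% and 4.89% of all genes), and 16 were higher and 0 lower in WT livers (16.0% and 0.884%). The WT count was 6 without WT day 0 replicate 2 and 9 without WT day 10 replicate 1. In both male genotypes day 0 replicate 1 is of batch 1 and replicate 2 of batch 2, while days 10 to 14 are all of batch 1. Day and batch thus cannot be fully told apart in these changes. The members' median change was 0.54 in KO and 0.51 in WT livers. The 2 that fell in KO livers were Mcm10 (-2.92 ± 0.33, adjusted p = 0.000194) and Rfc5 (-2.03 ± 0.26, adjusted p = 0.0427). The changes differed between the genotypes for 9 members: Ccnd1, Ccnd2, Cdc45, Pcna and Fen1 above and Mcm10, Prim1, Rfc5 and Tk1 below, where 23.4% and 7.78% of all genes were called. The 5 members above are thus no larger a share than among all genes.

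**Figure D4:**
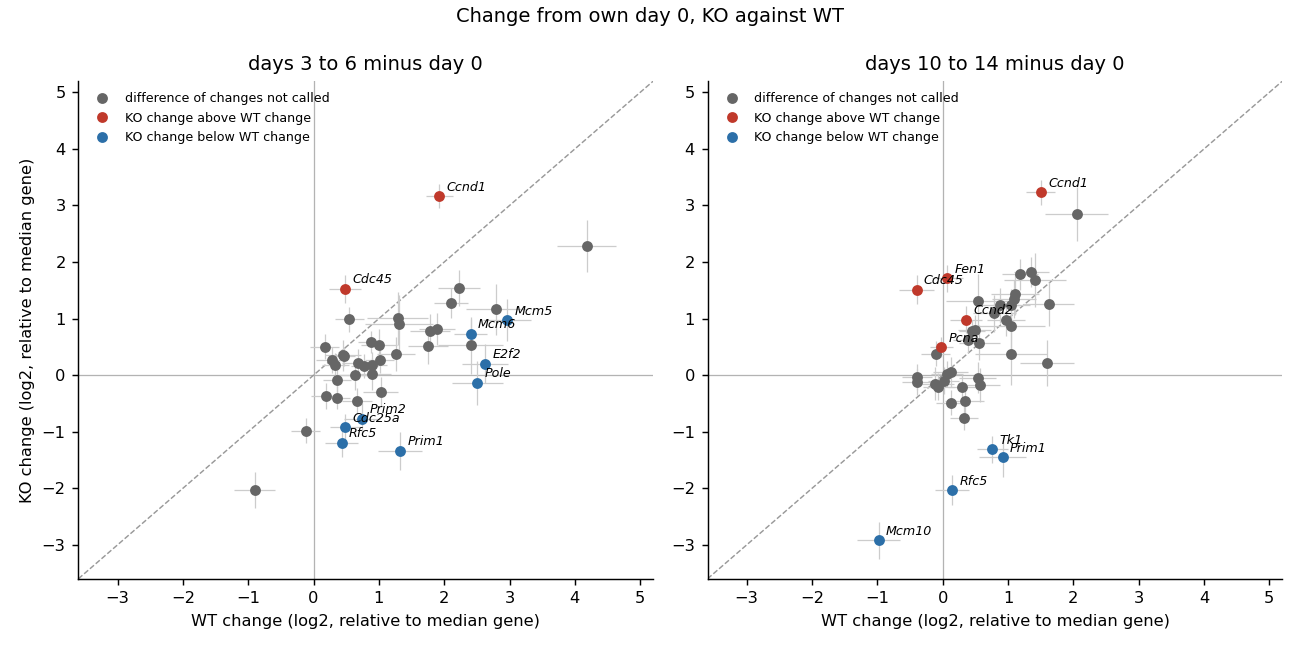
Change from own day 0 (log2, relative to the median gene, bars for standard errors) in KO livers against WT livers for the 42 tested genes, on days 3 to 6 and days 10 to 14. The dashed line marks equal changes, and coloured genes are those whose changes differed between the genotypes. On days 3 to 6, 8 genes are called below the line and 2 above, and on days 10 to 14, 4 below and 5 above.

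Mcm10, which links the helicase to polymerase alpha, kept its own course. It was lower in KO than in WT livers from days 1 to 2 (-1.17 ± 0.28) through days 3 to 6 (-2.0 ± 0.20), 7 to 9 (-1.78 ± 0.23) and 10 to 14 (-2.84 ± 0.25). On day 0 it had 7.30 and 6.24 RPKM in KO livers and 7.61 and 18.4 RPKM in WT livers (-0.90 ± 0.40, not called). Later, on days 3 to 6, it had 1.68, 2.69 and 4.29 RPKM at the lowest, median and highest in KO livers and 6.28, 9.13 and 10.6 RPKM in WT livers, without overlap. In WT livers its change from day 0 was -0.90 ± 0.31 (adjusted p = 0.261 in the deposited values and 0.0368 after centring). In KO livers it fell from day 0 in all 3 late windows. The difference between these changes was called on days 10 to 14, and not on days 3 to 6 or 7 to 9. The call of days 1 to 2 was lost without WT day 1 replicate 2, KO day 1 replicate 1 or replicate 1 of WT or KO day 2 (-1.39 to -0.95 over the libraries left out).

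Few members differed past the threshold before day 3. On day 0 limma called 0 of 42 members, where 0.0327% of all genes were higher and 0.0327% lower. An unadjusted limma p under 0.05 was reached by 4 members and by 542 of all 12221 genes. On days 1 to 2, 3 members were higher in KO than in WT livers and 2 lower (9.05% and 1.82% of all genes). Ccnd1 had 12.9 and 10.4 RPKM in KO livers on day 1 and 23.1 and 19.3 RPKM on day 2, against 4.26 and 2.13 RPKM and 20.5 and 18.2 RPKM in WT livers, a difference of 0.81 ± 0.19 (adjusted p = 0.000573). The gap was thus on day 1. Tk1 (0.87 ± 0.20) and Gins1 (0.71 ± 0.20) were higher as well. E2f2 was lower, with 0.0989 and 0.0867 RPKM on day 1 and 0.354 and 0.213 RPKM on day 2 in KO livers, against 0.384 and 0.146 RPKM and 1.20 and 0.699 RPKM in WT livers (-1.78 ± 0.31, adjusted p = 0.00144). Against their own day 0, 3 members were higher and 0 lower in KO livers (6.61% and 1.38% of all genes), and likewise 3 and 0 in WT livers (4.53% and 0.876%). Leaving out 1 library lowered the KO count to 1 at the least, without KO day 0 replicate 1 or 2, and the WT count to 1, without any WT library of days 1 or 2.

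In Het livers, with 1 female per day, 40 members were tested. Against days 0 and 1, the windows of days 3 to 6, 7 to 8 and 10 to 13 had 17, 13 and 16 higher members and 0 lower, where 8.36%, 9.85% and 14.7% of all genes were higher and 1.13%, 0.361% and 0.562% lower. Without the day 1 liver, in which 12 of 45 members lay above the day 0 liver relative to the median gene, the counts were 6, 7 and 7. Without the day 5 or day 6 liver the first count was 9, and the second was 1 without day 7 and 4 without day 8. Prim1 had 2.17 and 0.982 RPKM on days 0 and 1, 2.39, 2.90, 3.89 and 4.21 RPKM on days 3 to 6, 3.13 and 3.57 RPKM on days 7 and 8, and 3.22, 3.95, 5.34 and 4.01 RPKM on days 10 to 13. Rfc5 had 4.17 and 2.22 RPKM on days 0 and 1, and 4.56 to 7.89 RPKM on days 3 to 13. Neither gene passed in Het livers (0.51 ± 0.32 for Prim1 and 0.26 ± 0.25 for Rfc5 on days 3 to 6), and the difference between Het and KO livers was not tested. Mcm5 rose by 1.22 ± 0.30 on days 3 to 6, Mcm6 by 1.04 ± 0.30 and Uhrf1 by 1.72 ± 0.42. Ccnd1 had 24.2 and 21.7 RPKM on days 0 and 1 and 41.5 to 105 RPKM later, and rose by 1.08 ± 0.28 on days 3 to 6. Its day 0 level in the Het female stood above those of the males, 4.23 and 3.88 RPKM in KO and 3.75 and 5.22 RPKM in WT, and sex and genotype cannot be told apart there.

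The 3 members too low for the test in males were E2f7, Cdc6 and Orc1. Cdc6, which loads the helicase with CDT1, had 0.280, 0.553 and 1.48 RPKM at the lowest, median and highest in KO livers of days 10 to 14, against 0.0234, 0.0724 and 0.302 RPKM in WT livers. In a fit without the filter the difference was 1.89 ± 0.38 (adjusted p = 5.52e-07). In the same fit Cdc6 already differed by 1.65 ± 0.62 on day 0, which was not called. Its KO change minus WT change from day 0 to days 10 to 14 was 0.29 ± 0.73, also not called. E2f7 had 0.207, 0.327 and 0.789 RPKM in KO livers of those days and 0.0670, 0.0945 and 0.406 RPKM in WT livers. Orc1, an origin recognition subunit, was listed at 0 in 5 libraries and did not exceed 0.701 RPKM.

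Other genes of the pathway gave a mixed picture. On days 3 to 6, 8 of 24 tested fork, nucleotide and chromatin assembly genes outside the set were lower in KO than in WT livers and 2 higher, 4 and 2 of 11 origin genes, 4 and 2 of 11 E2F, cyclin and kinase genes, and 2 and 2 of 9 CDK inhibitors and pocket proteins. Among all genes 13.0% were lower and 29.8% higher. On days 10 to 14 these counts were 1 lower and 7 higher, 0 and 4, 0 and 4, and 0 and 3, where 11.1% of all genes were lower and 38.6% higher, so that none of the 4 lists had a larger share higher than all genes. Rnaseh2a, a subunit of the nuclease that removes ribonucleotides from DNA, was lower in all 3 late windows (-2.08 ± 0.11, -2.21 ± 0.13 and -2.03 ± 0.13). The S phase cyclin Ccna2 was lower on days 3 to 6 (-1.85 ± 0.24) and higher on days 10 to 14 (0.88 ± 0.30), as was its kinase Cdk1 (-1.84 ± 0.22 and 0.75 ± 0.27). The CDK inhibitor Cdkn1a did not differ past the threshold on days 3 to 6 (-0.09 ± 0.19) and was higher on days 7 to 9 (1.36 ± 0.22) and 10 to 14 (3.05 ± 0.23). Cdkn2b, another CDK inhibitor, was higher in all 3 late windows (0.88 ± 0.33, 3.45 ± 0.38 and 4.18 ± 0.41). Of 11 tested mitosis genes, 11 were lower on days 3 to 6 and 7 higher on days 10 to 14.

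Markers of other cell types moved with the days. The summed level of 7 macrophage and Kupffer cell markers was 709 to 1588 RPKM in KO livers of days 10 to 14, against 178 to 602 RPKM in WT livers, and 4 of the 7 were higher. For days 3 to 6 the sums were 194 to 519.7 RPKM in KO and 121 to 393 RPKM in WT livers, and 2 of the 7 were higher. Of 7 lymphocyte markers, 1 was higher on days 3 to 6, against 0 on days 10 to 14. In the last window, 5 of 6 duct cell, 6 of 6 stellate cell and 3 of 6 endothelial markers were higher and 2 of 8 hepatocyte markers, Alb and Cps1, lower, beside 38.6% of all genes higher and 11.1% lower in that window and 29.8% higher on days 3 to 6. The summed level of 8 hepatocyte markers was 24510 to 60710 RPKM in KO livers of days 3 to 6, against 67900 to 91600 RPKM in WT livers, and that of the mitosis genes was 5.01 to 11.1 RPKM in KO and 12.2 to 49.7 RPKM in WT livers. Of 2 neutrophil markers tested, 1 was higher on days 3 to 6, with Elane at 0 in both KO livers and Mpo in both WT livers of day 0. Of 2 erythroid markers, 1 was higher on days 3 to 6 and 2 lower on days 10 to 14. The part of these cell types in the results was not tested.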

How the data were processed

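The authors deposited 1 table of log2 RPKM values for 15616 genes in 63 libraries of single livers. Per the submitters' processing notes it was made with TopHat2 2.0.13, Bowtie 1.1.2 and edgeR on mm9. Per the labels' protocols, strand-specific poly(A) libraries were read as single ends of 50 nt. The strand used in counting is not given in the sources used here. A constant of 8.9e-05 RPKM underlies the logs, so 5.02% of values stand for 0 reads, and 0 columns lacked a sample. Depth was estimated from the steps between low values, which came out within 0.05 reads of whole numbers for 98.7% of values of 520 weak genes, at 18.1M to 53.7M reads per library. At these depths 1 read over 2000 bases is worth 0.0096 to 0.035 RPKM.

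Limma 3.58.1 (R 4.3.3, trended empirical Bayes) was fitted to the deposited log2 values of 51 male libraries, with a mean for each genotype and day and window means as contrasts. This left 21 residual degrees of freedom, and days with 1 library were assumed to vary like the rest. Genes had to reach log2 RPKM 0 in 4 libraries (12221 genes). The 12 Het libraries were fitted apart by window (8 degrees of freedom, 2 libraries, 11919 genes). Benjamini-Hochberg adjustment ran over all genes at 0.05, and calls had to hold with 1 sign after centring each library on its median gene. Mice differed between samples, and no mouse gave 2 libraries. The fit was tested on simulated data. Deposited library names split 39 and 24 libraries into batch 1 and batch 2. Days 2 and 9 lie in batch 2 in both male genotypes, and days 10 to 14 and all females in batch 1.

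Alternatives were the deposited or the centred scale alone, quantile normalization, no low-value filter, a pseudocount of 0.1 RPKM, each library left out, a replicate block and single replicate numbers. Single batches were added after the data had been seen. Promoters came from RefSeq (GRCm38.p6), matched by symbol. The 45 members, the windows and all gene lists were chosen with earlier results of these data known. Named were E2f1, Ccnd1, Mcm2 to Mcm7, Pcna and Rrm2, and in each role group and direction up to 4 called members with the smallest p. Further members were named after their values were seen, mainly where 1 library decided a call. Of other pathway genes, up to 4 per list and direction with the smallest p could be named.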

Additional observations from a re-analysis of the deposited data

Results flagged for a closer look

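WT day 10 replicate 1 stood apart from the other WT livers of days 10 to 14, with the members' median at -1.06 log2 units from the library's median gene. Such a gap arises by chance in about 1 in 20 groups, and 10 groups were looked at.

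The change from day 0 differed between KO and WT livers for the following members, by limma's test of the difference of the 2 changes, given as KO change minus WT change on the log2 scale. On days 3 to 6 it was -2.38 for E2f2, 1.28 for Ccnd1, -1.35 for Cdc25a, -1.94 for Mcm5, -1.63 for Mcm6 and 1.09 for Cdc45. On the same days it was -2.61 for Prim1, -1.46 for Prim2, -2.59 for Pole and -1.58 for Rfc5. On days 7 to 9 it was 1.18 for Ccnd1, 1.55 for Cdc45, -2.80 for Prim1, -1.32 for Prim2, -1.97 for Pole, -2.25 for Rfc5 and -1.07 for Tk1. On days 10 to 14 it was 1.74 for Ccnd1, 0.64 for Ccnd2, -1.92 for Mcm10, 1.93 for Cdc45 and 0.54 for Pcna. On those days it was -2.35 for Prim1, -2.16 for Rfc5, 1.66 for Fen1 and -2.06 for Tk1. All of these differences share the 2 livers of day 0 in each genotype, and so hold any gap between the genotypes on that day.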

How the results depend on the processing

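Counts of called members moved by over 1.5 times under these settings. In KO minus WT, batch 2 alone gave 1 on day 0. On days 1 to 2 (5 called), centring alone gave 8, batch 1 alone 0 and batch 2 alone 1. On days 3 to 6 (21), centring alone gave 35, quantile normalization 34, batch 1 and replicate number 1 alone 8 each, and batch 2 and number 2 alone 12 each. On days 7 to 9 (19), batch 1 gave 3, batch 2 12, number 1 7 and number 2 10. For KO change from day 0, days 1 to 2 (3) gave 6 on the deposited scale, 6 centred, 5 under quantile normalization, 0 in batch 1 and 1 in batch 2. Days 3 to 6 (17) gave 32 deposited and 5 in each batch. Days 7 to 9 (21) gave 33 deposited, 11 in batch 1 and 8 in batch 2, and days 10 to 14 (23) gave 40 deposited. For WT change from day 0, days 1 to 2 (3) gave 6 deposited, 1 with 0.1 RPKM added and 0 under quantile normalization and in each batch. Days 3 to 6 (29) gave 8 in batch 1 and 15 in batch 2. Days 7 to 9 (24) gave 41 deposited, 3 in batch 1 and 10 in batch 2, and days 10 to 14 (16) gave 37 deposited, 10 under quantile normalization and 2 in batch 1. Days 7 to 9 against 3 to 6 gave 15 under quantile normalization, 0 in batch 1 and 3 in batch 2 in KO (9), and 2 centred, 3 under quantile normalization and 0 in each batch in WT (1). The difference of changes gave 17 centred and 0 in each batch for days 3 to 6 (10). It gave 12 centred, 11 under quantile normalization, 0 in batch 1 and 2 in batch 2 for days 7 to 9 (7), and 20 deposited, 14 under quantile normalization and 4 in batch 1 for days 10 to 14 (9). In Het livers, deposited values gave 37, 39 and 38 for the 3 windows (17, 13 and 16), quantile normalization 9, 4 and 7, and day 0 alone as baseline 6, 7 and 7. The cause was not tested. Single batches and single replicate numbers hold fewer libraries, and the deposited scale keeps the median gene shift.

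With each library left out in turn, KO minus WT gave 0 on day 0, 4 to 5, 19 to 23, 15 to 20 and 19 to 27 in the later windows. KO change gave 1 to 4, 9 to 18, 16 to 23 and 20 to 23, and WT change 1 to 2, 17 to 29, 15 to 25 and 6 to 18. Days 7 to 9 against 3 to 6 gave 5 to 13 in KO and 0 to 1 in WT livers, the difference of changes 5 to 11, 4 to 10 and 6 to 13, and Het livers 6 to 22, 1 to 15 and 7 to 19. Of the called members, E2f2 in KO minus WT on days 10 to 14 (-0.01 to 1.24) and E2f8 in WT change on days 7 to 9 (-0.16 to 3.29) changed sign.

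Replicate numbers were not taken as pairs, since deviations of same-numbered KO and WT livers correlated at -0.055 to 0.286 over days 0 to 9. With a replicate block, without the unnumbered library, KO minus WT called 0, 7, 23, 20 and 23 members, and no count moved by over 1.5 times.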

Other observations

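In Het livers Mcm10 had 1.66, 1.11, 2.33 and 2.34 RPKM on days 3 to 6, against 6.28 to 10.6 RPKM in the WT livers of those days, and 3.74 and 2.04 RPKM in the Het livers of days 0 and 1. Later Het livers had 4.64 and 5.79 RPKM on days 7 and 8, against 5.34 to 11.8 RPKM in the WT livers of days 7 to 9, and 3.66, 2.79, 3.77 and 4.65 RPKM on days 10 to 13, against 8.51 to 11.6 RPKM in the WT livers of days 10 to 14. The Het value of day 8 lies within that WT range of days 7 to 9, and the others lie below theirs. Sex and genotype cannot be told apart here, and no test was run between Het and WT livers. In the Het fit against days 0 and 1, Mcm10 was not called in any window.

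Tk1 and Tyms act in the same supply of thymidine nucleotides. Tk1 was higher in KO than in WT livers on days 1 to 2 and lower from days 7 to 9 on. It had 27.4 and 24.8 RPKM in the KO livers of day 2, against 10.1 and 16.7 RPKM in the WT livers, and 7.47 to 16.3 RPKM in KO livers of days 10 to 14, against 12.8 to 26 RPKM in WT livers. Exons of Tk1 overlap those of Afmid by 83 bases on the opposite strand.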
